A study of Mus musculus with 2 samples.

Results

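Dense clusters of distal DNase I accessible sites in the mouse urinary bladder comprised 775 sites in 164 clusters, called chains here, out of 15262 distal sites on the autosomes (5.08%). Members were chosen from the peak lists of both libraries. Overlapping peaks were merged to 51228 sites, of which 31612 held a peak of each library and 30840 of those lay on an autosome. Sites more than 500 bases from every GENCODE M21 transcript start were called distal, neighbours whose midpoints were at most 12500 bases apart were joined, and chains of 4 or more sites were kept. The choice therefore used the position of peaks and their presence in both libraries, and the order of chains used the summed peak height, so chain sizes, spacing and heights are given as description. The other 14487 distal sites, in chains of 1 to 3, are the comparison throughout.

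DNase-seq maps accessible chromatin by sequencing the ends that the nuclease DNase I leaves where it cuts. The study holds 1 group, urinary bladder from B6CASTF1/J males at 36 days of age with no treatment stated, with 2 libraries and no other condition, so no test between conditions was possible. The labels number the libraries as biological replicates and the males separately, yet give both the same donor entry, so agreement between libraries may be technical in part. The strain is an F1 hybrid whose parents are C57BL/6J and CAST/EiJ, a wild-derived strain, while the mm10 assembly used by the authors represents C57BL/6J only. The tissue is a mixture of urothelium, smooth muscle, stroma, vessels, nerves and immune cells, and in bulk tissue fewer cells of a type and less accessible chromatin per cell cannot be told apart.

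The replicate 1 list held 38674 peaks and the replicate 2 list 47661. Peak height, a signal value for which no scale is stated, moved by 0.0113 per step in replicate 1 and by 0.00893 per step in replicate 2, and the absolute read depth is unknown. Sites of both libraries lay at a start of 19 of 30 urothelial genes and 11 of 23 smooth muscle genes, with 57.4% among all autosomal protein-coding genes. Of the other cell types of the wall, 6 of 20 fibroblast, 4 of 18 endothelial, 2 of 8 pericyte, 3 of 14 myeloid, 3 of 14 lymphocyte, 4 of 8 adipocyte and 0 of 8 mesothelial genes had one. Among lists of other tissues the counts were 4 of 15 for neurons, 3 of 12 for skeletal muscle, 2 of 10 for photoreceptors, 1 of 13 for hepatocytes, 0 of 10 for cardiomyocytes and 0 of 8 for prostate and seminal vesicle. The urothelial share was thus a little above that of all genes and the smooth muscle share a little below it. Both lists are short, so neither difference is read as a result. Lists not tied to a cell type had higher shares: 22 of 23 cell junction genes, 19 of 20 retinoid, Hippo and NF-kappaB genes, 18 of 19 growth factors and receptors, and 18 of 20 immediate early genes.

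Distal accessible sites include enhancers, which are short stretches that bind transcription factors and act on promoters at a distance, and insulators bound by CTCF. Enhancers often lie in groups around genes that define a cell type or that respond quickly to signals, and such groups have been described as stretch enhancers or super-enhancers. Genes of transfer RNA, which RNA polymerase III transcribes from promoter elements inside the gene, also lie in clusters, and their starts are not in the GENCODE list that set the distance rule. A footprint is a short stretch of few cuts inside an accessible site, as a bound protein leaves it.

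The following sequences show the highest site of 7 chains, chosen as those of the 3 leading chains outside tRNA genes, of the chain with the most sites, of the leading chain near a smooth muscle gene, and, added after values were seen, of a tRNA chain and of the Fosb chain. All are plus-strand mm10 sequence read from GRCm38 patch 6, with bases inside a footprint of both libraries in capitals, except that capitals mark the tRNA gene in the tRNA chain. The sites are chr11:3127081-3127320 (first Sfi1 chain), chr11:3181361-3181600 (second Sfi1 chain), chr15:101973741-101973940 (Krt78 and Krt8 chain), chr14:21987800-21988099 (a 300-base window of the Zfp503 site), chr1:135789921-135790100 (Tnni1 chain, near Csrp1), chr11:69041701-69041920 (tRNA chain at Aurkb and Ctc1, with the tRNA gene n-TWcca7) and chr7:19308581-19308840 (Fosb chain).
first Sfi1 chain: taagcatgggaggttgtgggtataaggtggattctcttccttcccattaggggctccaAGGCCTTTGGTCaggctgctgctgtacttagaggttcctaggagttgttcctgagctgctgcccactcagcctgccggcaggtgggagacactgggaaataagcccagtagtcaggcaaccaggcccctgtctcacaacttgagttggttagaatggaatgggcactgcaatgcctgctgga
second Sfi1 chain: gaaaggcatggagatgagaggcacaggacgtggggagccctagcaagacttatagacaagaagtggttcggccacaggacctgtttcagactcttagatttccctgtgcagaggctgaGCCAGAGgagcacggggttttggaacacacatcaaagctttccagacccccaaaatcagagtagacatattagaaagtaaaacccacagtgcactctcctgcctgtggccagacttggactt
Krt78 and Krt8 chain: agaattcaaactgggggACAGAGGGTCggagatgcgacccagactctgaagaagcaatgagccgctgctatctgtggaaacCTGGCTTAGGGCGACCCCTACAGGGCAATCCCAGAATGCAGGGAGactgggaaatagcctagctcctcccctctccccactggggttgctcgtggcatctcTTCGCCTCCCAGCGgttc
Zfp503 chain: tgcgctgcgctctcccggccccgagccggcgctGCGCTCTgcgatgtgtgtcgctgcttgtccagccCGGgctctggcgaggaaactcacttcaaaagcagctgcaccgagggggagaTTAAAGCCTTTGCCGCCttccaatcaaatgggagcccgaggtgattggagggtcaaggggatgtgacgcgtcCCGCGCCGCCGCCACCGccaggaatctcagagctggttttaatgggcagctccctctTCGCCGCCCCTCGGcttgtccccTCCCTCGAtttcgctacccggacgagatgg
Tnni1 chain: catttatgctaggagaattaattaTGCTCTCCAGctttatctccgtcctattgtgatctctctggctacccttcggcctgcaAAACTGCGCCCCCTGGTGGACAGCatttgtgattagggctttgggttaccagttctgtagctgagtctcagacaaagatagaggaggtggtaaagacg
tRNA chain: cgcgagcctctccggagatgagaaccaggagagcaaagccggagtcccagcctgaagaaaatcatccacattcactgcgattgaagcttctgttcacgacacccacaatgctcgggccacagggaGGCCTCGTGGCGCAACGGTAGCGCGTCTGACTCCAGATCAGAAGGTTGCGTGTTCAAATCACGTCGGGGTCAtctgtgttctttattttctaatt
Fosb chain: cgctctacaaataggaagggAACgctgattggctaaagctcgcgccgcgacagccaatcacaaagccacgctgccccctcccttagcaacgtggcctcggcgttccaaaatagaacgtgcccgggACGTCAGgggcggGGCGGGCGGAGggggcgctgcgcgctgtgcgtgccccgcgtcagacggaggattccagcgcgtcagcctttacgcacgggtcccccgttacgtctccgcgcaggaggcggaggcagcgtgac
The footprint overlap was 12 bases in 1 run in the first Sfi1 site and 7 bases in 1 run in the second, against 69 bases in 3 runs in the keratin site and 66 bases in 6 runs in the Zfp503 window. The Fosb site had 21 such bases in 3 runs and the Tnni1 site 34 bases in 2 runs.

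Most chains were short. Chains of exactly 4 sites numbered 101 and chains of 5 numbered 33, while 16 chains had 6 sites, 9 had 7, 2 had 8, and 1 each had 9, 10 and 12. Chains of 4 had a median summed height of 7.12, and the 385 chains of 3 just outside the rule had 4.80. Sites in chains of 4 had median heights of 1.68 in replicate 1 and 1.52 in replicate 2, and sites in chains of 3 had 1.51 and 1.43. At the distance limit, 123 gaps between neighbours fell in the last 1000 bases inside it and 148 in the first 1000 bases outside it, and 8 chains ended within 1000 bases of joining a neighbour. The median gap inside the chains was 2430 bases, against 56647 between all neighbouring distal sites. The number of chains depended on the library: peaks of replicate 2 alone gave 3029 sites in 605 chains and those of replicate 1 alone 1615 sites in 316 chains.

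**Figure D1:**
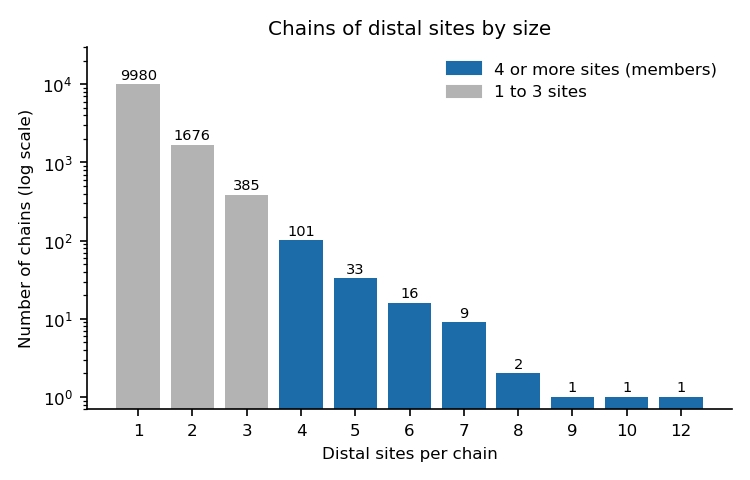
Number of chains (log axis) by the number of distal sites they hold. Bars for 4 or more sites, the members, fall to 1 chain each at 9, 10 and 12 sites, and 9980 distal sites stood alone.

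Summed heights of the chains were similar in both libraries. A chain spanned a median of 12.2 kb (1.48 to 42.1 kb), and its summed height had a median of 8.72 in replicate 1 and 8.07 in replicate 2. Across the 164 chains Spearman's rho between the libraries' summed heights was 0.959, and Pearson's r of their log10 values was 0.961. These chains share both libraries, and chains with more sites had larger sums, so the coefficients are descriptions. The log2 ratio of replicate 1 to replicate 2 had a median of 0.09 and an SD of 0.18 over chains, and 116 chains were higher in replicate 1. Its extremes were -0.29 at the Rnase4 chain, a tRNA chain, and 0.56 at the Sema6b chain. Of the 20 highest chains by replicate 1, 17 were among the 20 highest by replicate 2, and the 20 highest by the mean held 23.0% of the summed height of all chains.

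**Figure D2:**
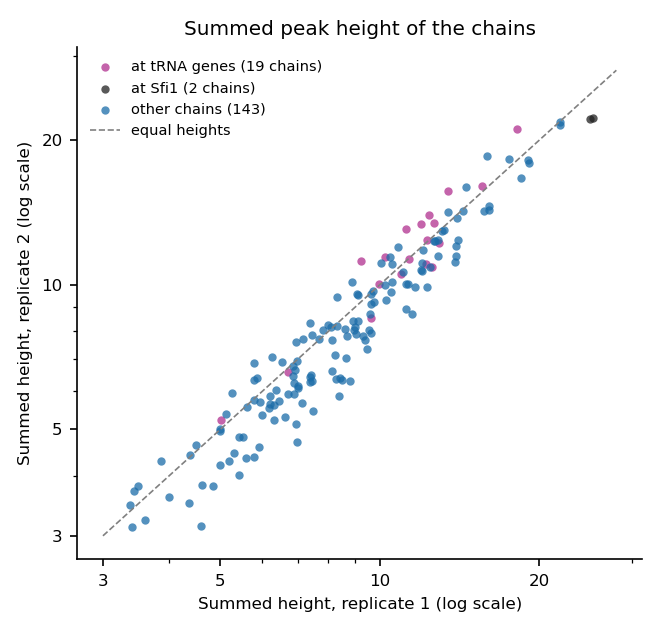
Summed peak height of each chain in replicate 1 and replicate 2 (both log axes), with chains at tRNA genes and at Sfi1 marked. Points lie along the line of equal heights, and 13 of the 19 tRNA chains lie above it.

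The 2 highest chains lay at Sfi1, which encodes a centrin-binding protein of the centrosome. The first had 5 sites on chromosome 11 (3123801 to 3132320), with summed heights of 25.3 in replicate 1 and 22.3 in replicate 2. Its midpoints lay in Pisd-ps1, annotated as a transcribed pseudogene, at 3 sites, in Sfi1 at 1 and in no annotated gene at 1. A single site of 240 bases reached 12.04 in replicate 1 and 9.66 in replicate 2, the highest of all members in both, while the other 4 sites ranged between 2.39 and 4.14. The second chain had 10 intronic sites inside Sfi1 (3153708 to 3181600), with sums of 25.0 in replicate 1 and 22.2 in replicate 2, and 5 of its sites held the AP-1 consensus. Repeated sequence was counted as 32-base words in the assembled chromosomes only, so copies missing from the assembly were not seen. No list of regions to exclude was applied here. In the first chain a median of 36.5% of the 32-base words of a site occurred elsewhere in the assembly, with up to 3 copies. In the second the median was 0%, although some words had up to 269 copies. The part of this repetition in the heights was not tested. Without both chains the ratio of member to other height, given below as 1.31, was 1.29.

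Next in the order came a chain between keratin genes, which encode the intermediate filaments of epithelia. It had 6 intergenic sites on chromosome 15 (101973741 to 101988400) and sums of 22.0 in replicate 1 and 21.9 in replicate 2. Its highest site measured 5.44 in replicate 1 and 5.48 in replicate 2, and the lowest 2.30 and 2.38. The highest site lay 19.6 kb upstream of a start of Krt78, while 4 sites at the other end had Krt8, the keratin of simple epithelia, as the nearest gene, the closest at 16172 bases. A separate chain of 4 sites lay nearest Krt8 at 102003077 to 102017060, with sums of 5.61 and 5.55. On chromosome 11 a chain of 5 sites (100282124 to 100298571) had a midpoint 21.2 kb from a start of Krt17, a keratin of basal and stressed epithelium. The nearest genes of its sites were Krt42 and, at the other end, Eif1. This chain had sums of 13.3 in replicate 1 and 13.0 in replicate 2. All 5 of its sites lay between 2.14 and 3.23 in both libraries. Another chain on chromosome 15 (101327381 to 101342080), with 6030408B16Rik as nearest gene and Krt80 within 50 kb, had sums of 14.0 and 12.1.

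Further chains of high sum lay at genes of varied function. Ltbp4, which encodes a latent TGF-beta binding protein of elastic fibres, held a chain of 9 sites (chromosome 7, 27325714 to 27336180), with sums of 21.9 in replicate 1 and 21.6 in replicate 2; the largest heights, at different sites, were 4.98 in replicate 1 and 4.42 in replicate 2, and 1 site had no footprint in either library. Kdm6b, an H3K27 demethylase, had 7 sites with sums of 18.5 and 16.7, and 6 of them lay within 500 bases of a RefSeq start that is not a GENCODE start. The chain whose highest site lay nearest Nr1d1, which encodes the clock repressor REV-ERB alpha, had 5 sites with sums of 15.9 in replicate 1 and 18.6 in replicate 2. Its leading site measured 5.78 and 7.53, and part of the chain lay nearer to a start of Msl1. Ptma, encoding prothymosin alpha, had 6 sites with sums of 17.5 and 18.3. Mnt, a repressor that pairs with MAX, had 5 sites with sums of 16.1 and 14.6. The Nanos3 chain of 7 sites, which overlaps the miRNA genes Mir23a, Mir27a and Mir24-2 and the gene Zswim4, had sums of 14.6 and 15.98. The Rpl14 chain of 7 sites, 29.4 kb from a start of that ribosomal protein gene, had sums of 14.0 and 12.4. The Sertad3 chain of 4 sites had sums of 13.1 and 13.0.

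The chain with the most sites lay at Zfp503, a zinc finger repressor, with 12 sites (chromosome 14, 21969061 to 21995800) and sums of 19.1 in replicate 1 and 17.97 in replicate 2. Heights within that chain ran between 0.680 and 3.51 in replicate 1 and between 0.661 and 3.84 in replicate 2, and 3 of the 12 sites had no footprint in either library. Id2, an inhibitor of helix-loop-helix factors, had 8 sites with sums of 15.8 and 14.3, of which the leading site measured 4.95 and 4.83. The chain at Zfpm1, a cofactor of GATA factors, had 6 intronic sites with sums of 14.4 and 14.2. Sites 671 and 8801 bases upstream of a Zfpm1 start lay in the overlapping gene Gm20388 only. The nearer of these was the highest of the chain, at 7.99 in replicate 1 and 7.23 in replicate 2. At the lower end of the ranking, Foxa1, a pioneer factor of epithelia, had 5 sites with sums of 6.63 in replicate 1 and 5.31 in replicate 2.

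Several chains lay at immediate early genes, the transcripts that cells make first after a stimulus. A member midpoint lay within 50 kb of a start of 5 of the 20 genes of this list, against 2.25% of all 20807 autosomal protein-coding genes (469). The 5 were Fosb, Junb, Zfp36, Ier2 and Btg2. The list was written with earlier results of these data known, and this count is no test. Fosb, an AP-1 subunit, had 6 sites with sums of 19.1 in replicate 1 and 18.2 in replicate 2; 3 lay in exons or introns of D830036C21Rik upstream, and 1 in the neighbouring gene Rtn2. The site highest by the mean of libraries measured 3.96 in replicate 1 and 4.46 in replicate 2 and lay 890 bases downstream of a start; in replicate 1 the site in Rtn2, at 4.50, was higher. Junb, another AP-1 subunit, had a site 1.41 kb from a start in the chain whose nearest gene by its highest site was Hook2, with sums of 16.1 and 14.3. Zfp36, which encodes the mRNA decay factor tristetraprolin, had a site 0.977 kb from a start in the chain nearest to Plekhg2, with sums of 14.0 and 13.8, and Ier2 had 5 sites with sums of 13.5 and 14.2. The chain of Btg2, an antiproliferative factor, had 4 sites with sums of 8.30 and 9.43, and part of it lay nearer to a start of Fmod, the nearest gene by the chain midpoint. Where distal meant beyond 2500 bases of a start, the count for the list was 1 of 20.

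The other lists were counted in the same way, and the share over all autosomal protein-coding genes was 2.25%. At that share, single genes or none in lists this short are not read as results. Genes of the urothelium counted 5 of 30: Krt8, Krt18, Krt17, Upk1a and Foxa1. Krt8 and Krt18 are neighbours and share a chain, and Upk1a, a uroplakin of the umbrella cell, had a site 0.883 kb from a start in a chain of 4 sites with sums of 8.23 in replicate 1 and 7.15 in replicate 2. Among glial genes, Prx, which encodes periaxin of the myelin sheath, had its nearest member 8.42 kb from a start, in the Sertad3 chain, and Mbp, which encodes myelin basic protein, had a chain of 4 sites with sums of 5.79 in replicate 1 and 6.34 in replicate 2. Myeloid genes had 2 of 14, Cx3cr1 and Fcgr3, the latter in a tRNA chain. All 4 sites of the Cx3cr1 chain lay inside that annotated gene, but only 1 lay within 50 kb of its start, at 47.8 kb. By distance to a start, Xirp1 was the nearest gene of all 4 sites. Smooth muscle had 1 of 23, Csrp1, with 1 site at 41.9 kb, in a chain of 4 sites nearest Tnni1 with sums of 6.92 and 6.64. Endothelium had 1 of 18, Pecam1, with a chain of 4 sites and sums of 8.12 and 7.68. Single genes also counted for neurons (Rbfox3, of 15), cardiomyocytes (Tnnt2, of 10, in the same chain as Csrp1) and growth factors and receptors (Igf1r, of 19). No gene had a chain among fibroblasts (20), pericytes (8), lymphocytes (14), mesothelium (8), adipocytes (8), hepatocytes (13), skeletal muscle (12), photoreceptors (10), prostate and seminal vesicle (8), cell junctions (23) or retinoid, Hippo and NF-kappaB genes (20).

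**Figure D3:**
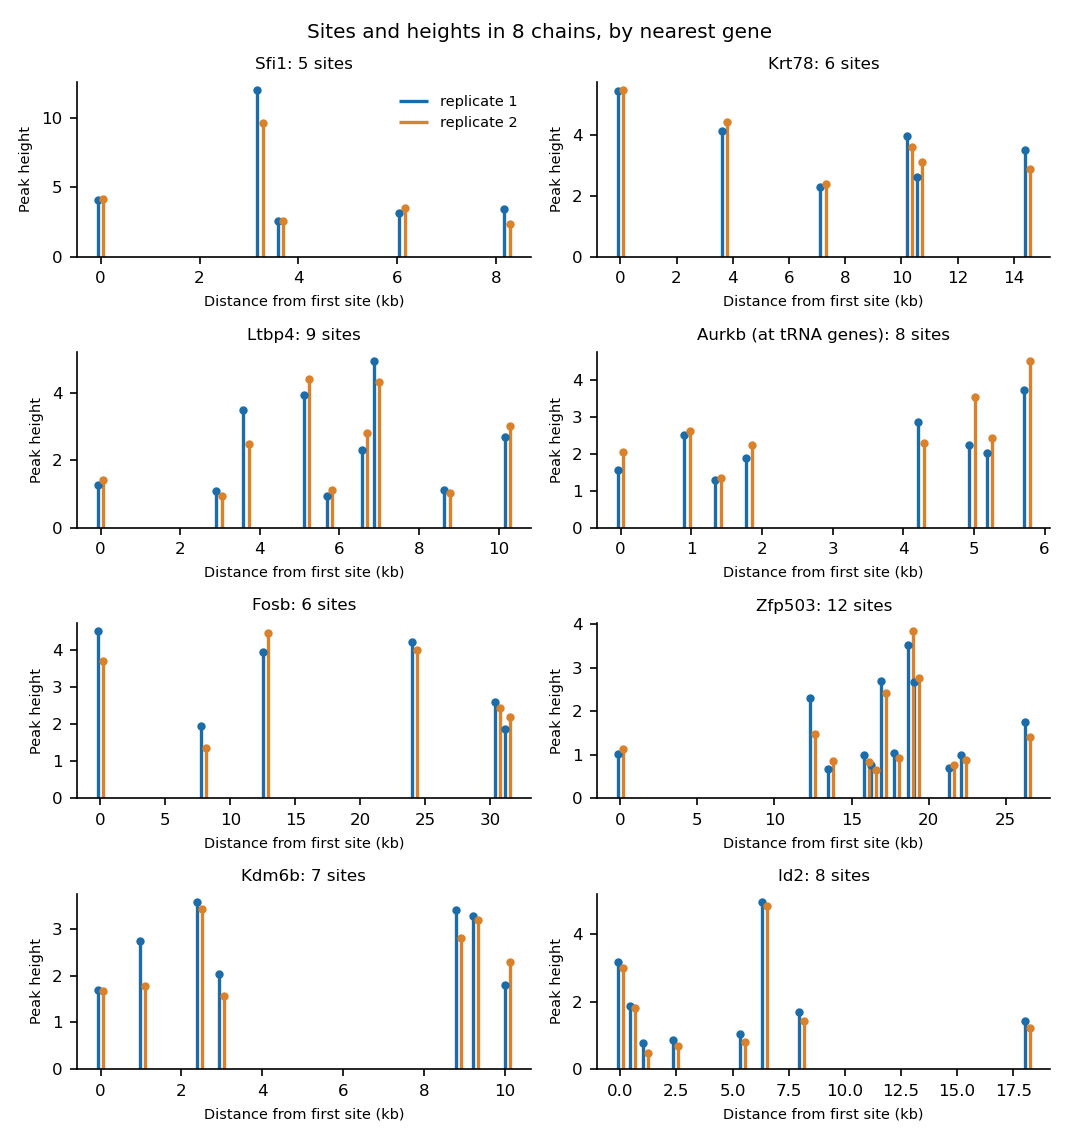
Peak height of every site in 8 chains, in replicate 1 (blue) and replicate 2 (orange), against distance from the chain's first site in kb. A single site stands above the others in the first Sfi1 panel, while the Krt78 and Fosb chains hold several sites of similar height.

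tRNA genes accounted for the densest packing. Of the 775 members, 76 lay within 500 bases of a tRNA gene, 9.81%, against 0.442% of the other distal sites and 0.917% of all distal sites, and they fell in 19 chains that hold 98 sites and 66 tRNA genes. Each chain's own median gap had a median of 645 bases over these chains, against 3076 over the other 145, although it reached 10690 bases in a tRNA chain. The highest lay at Aurkb and Ctc1 (chromosome 11, 69035961 to 69041920), with 8 sites, 7 at tRNA genes, and sums of 18.1 in replicate 1 and 21.1 in replicate 2. Others lay on chromosome 3 (96497441 to 96503361), with sums of 15.6 and 16.1, and at Hes7 on chromosome 11, with 13.4 and 15.7. The B box, a promoter element inside tRNA genes, was searched by its consensus on both strands and matched 52.6% of the 76 sites, against 0.286% of the 699 other members; the share over all distal sites was 0.518%. The Aurkb sequence printed above holds the gene n-TWcca7 and no match to that consensus.

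Summed heights at tRNA chains leaned to replicate 2 and those of the other chains to replicate 1, with median log2 ratios of replicate 1 to replicate 2 of -0.04 and 0.14. Of the 19 tRNA chains, 13 were higher in replicate 2 (68.4%), against 35 of the other 145 (24.1%). Among single sites the share higher in replicate 2 was 57.9% at the 76 tRNA members and 35.3% at the other 699 members; it was 56.3% at tRNA sites outside chains and 39.3% of all distal sites. Median heights at the tRNA members were 2.02 in replicate 1 and 2.22 in replicate 2, against 1.68 and 1.53 at the other members. With 2 libraries of 1 group this split has no replicate check. Sequence at tRNA genes is also partly repeated: the median share of a site's 32-base words found elsewhere in the assembly ran between 0% and 20.7% over the tRNA chains. Sites of the same chain shared such words in 7 chains, of which 2 were outside tRNA genes. The part of this repetition in the heights was not tested.

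Members were higher than other distal sites, as a description, since height also ordered the chains. The median height was 1.70 in replicate 1 and 1.59 in replicate 2, against 1.29 and 1.22 at the other distal sites, 1.32-fold and 1.30-fold. The 90th percentile was 3.56 and 3.38 for members against 2.60 and 2.37. The highest single distal sites were not members: the largest height was 12.04 in replicate 1 and 9.66 in replicate 2 for members, against 42.6 and 39.2 outside chains. Across members the heights of the libraries had a Spearman correlation of 0.90 (n = 775), against 0.86 for the others, which share the same libraries.

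Members were richer in CpG and closer to starts. Median GC content was 56.5% in members and 53.1% in other distal sites, and the median ratio of observed to expected CpG was 0.451 against 0.292. Median distance to a transcript start was 4226 bases against 8366, and 36.1% against 22.6% lay within 2500 bases. Members had a median width of 236 bases against 200, and a mean of 2.70 protein-coding genes within 50 kb against 1.86. Introns held 37.4% of members and 45.9% of the others, exons 9.68% and 8.09%, and intergenic sequence 52.9% and 46.0%. The intergenic members include most sites of the 19 tRNA chains, such as 7 of the 8 at Aurkb and Ctc1. These shares are not given without the tRNA chains, so the higher intergenic share need not hold for the other chains. RefSeq starts outside the GENCODE list lay within 500 bases of 76 members (9.81%) and of 4.89% of the others, with 5.14% over all distal sites.

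Footprints per site and the share of sites with a footprint went opposite ways between members and other distal sites. A footprint was present in 719 members in replicate 1, 92.8% (exact 95% interval 90.7 to 94.5), and in 706 in replicate 2, 91.1% (88.9 to 93.0), against 94.7% and 95.8% of the other distal sites and 94.6% and 95.6% of all distal sites. Intervals cover counting error only. The mean number per site was 2.84 in replicate 1 and 2.93 in replicate 2 for members, against 2.40 and 2.52; per kb it was 10.2 and 10.5 against 10.7 and 11.2. Both libraries had a footprint in 687 members (88.6%), against 92.2% of the others and 92.1% of all distal sites. Weighted to the members' heights, the others had 97.1% in replicate 1 and 97.8% in replicate 2. With the longer peak list the difference ran the other way, at 3.90 percentage points higher in members. Footprints came from the same reads as the peaks.

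**Figure D4:**
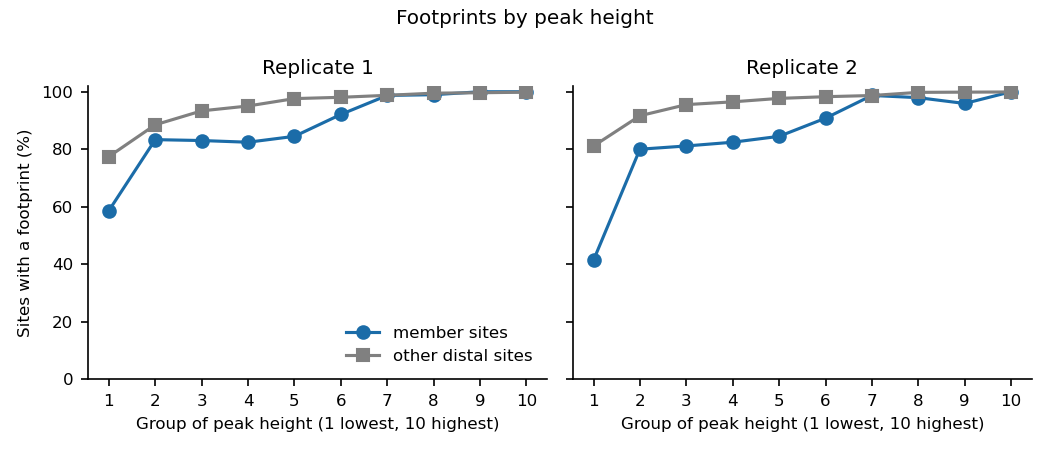
Share of sites with a footprint in 10 groups of equal number by mean peak height, member sites (blue circles) and other distal sites (grey squares), in each library. Members lie below the others in each of the lower 6 groups, with 58.6% against 77.4% in the lowest group of replicate 1, and in the highest group members are at 100% in replicate 1, against 99.9%.

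The sites without footprints were low and near starts. In 37 members (4.77%), against 259 others (1.79%) and 1.94% of all distal sites, neither library had a footprint. Their median height was 0.975 in replicate 1 and 0.884 in replicate 2, against 1.76 and 1.65 in the other 738 members. Of these 37 sites, 23 (62.2%) lay within 2500 bases of a start, against 34.8% of the rest, and 11 were exonic. They lay in 29 chains. Every site had a footprint in both libraries in 98 of the 164 chains. Of the footprints in members, 59.3% of the 2202 in replicate 1 and 56.7% of the 2269 in replicate 2 overlapped a footprint of the other library.

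Of 38 consensus sequences searched, KLF/SP had the largest difference in share between members and other distal sites, also with the others weighted by height. The KLF/SP consensus GGGCGG, bound by Sp and Krueppel-like factors, occurred on either strand in 234 members (30.2%, exact 95% interval 27.0 to 33.6) against 16.1% of the others and 16.8% of all distal sites; weighted to the members' heights the others had 19.3%. The ETS consensus CCGGAA occurred in 11.2% against 6.41% (6.65% of all), and the NF-kappaB consensus, GGGA and CC with 4 bases between them, in 22.2% against 14.5% (14.9% of all); in G-rich runs the KLF/SP and NF-kappaB consensus can overlap. TEAD (GGAATG) occurred in 15.6% against 12.4% (12.6% of all). The AP-1 consensus TGANTCA occurred in 11.6% of members (9.44 to 14.1), an interval that holds the 13.8% of the others and the 13.7% of all distal sites. Weighted to the members' heights the others had 12.9%, and members outside tRNA genes had 12.6%. Outside tRNA genes and below 2.5 kb from a start the order turned, with 11.5% of members against 10.9% of the others. The CTCF core consensus occurred in 2.07% against 3.33% (3.27% of all). Whole sites were searched, and members were wider, with a median of 236 bases against 200. Members were also richer in GC and CpG. The shares were not weighted by width or base composition, so the part of either in these differences was not tested. Only AP-1 was also searched in a fixed window of 200 bases, where its difference was -3.27 percentage points. A match is a string of letters and not evidence of binding.

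The KLF/SP share was higher in members in each of 3 classes of distance from starts. Outside tRNA genes, beyond 10 kb, GGGCGG occurred in 41 of 175 members, 23.4%, against 818 of 6546 others. Between 2.5 and 10 kb it occurred in 27.8% of 263 members against 14.7% of 4625 others, and below 2.5 kb in 41.0% of 261 members against 24.97% of 3252 others. Beyond 10 kb, footprints were present in 97.1% of members in replicate 1 and 96.6% in replicate 2, against 95.2% and 96.4% of the others. Between 2.5 and 10 kb the values were 93.5% in members in each library, against 96.3% in replicate 1 and 97.8% in replicate 2. Below 2.5 kb they were 90.04% and 86.6% in members, against 91.2% and 91.7%. Median height was also higher in members in each class, with 1.63 in replicate 1 and 1.42 in replicate 2 beyond 10 kb, against 1.17 and 1.13. Members were wider in each class too, with a median of 220 bases against 200 beyond 10 kb. GGGCGG holds only G and C, and members were also richer in GC and CpG in each class. Median GC content was 58.9% against 55.0% below 2.5 kb, 56.9% against 53.2% between 2.5 and 10 kb, and 55.4% against 52.3% beyond 10 kb. The KLF/SP shares were not weighted by width or base composition, so the part of either was not tested.

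**Figure D5:**
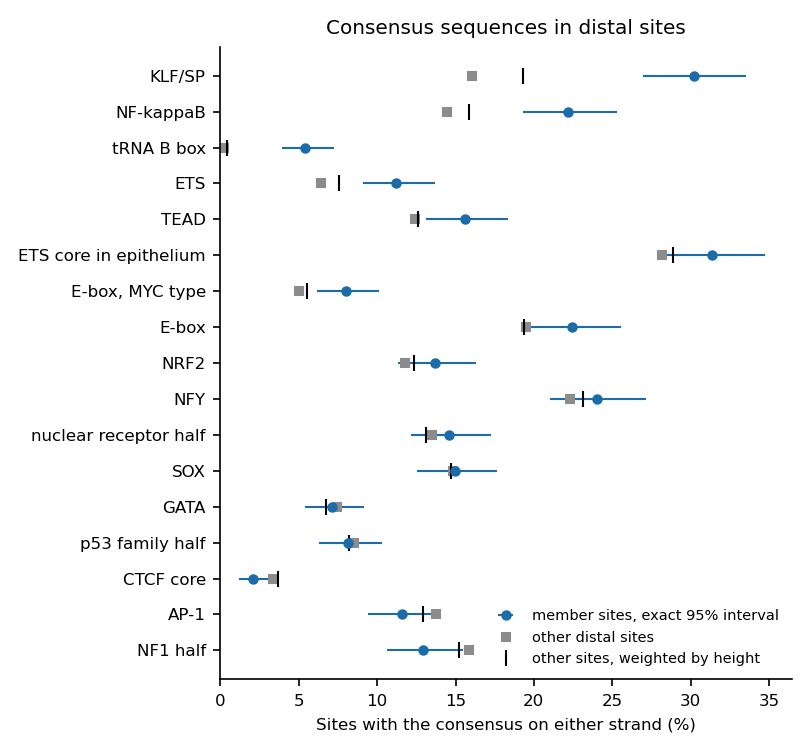
Share of sites that hold each consensus sequence on either strand, for member sites (circles, bars exact 95% intervals of counting error), other distal sites (squares) and other sites weighted by height (ticks). KLF/SP, at 30.2% against 16.1%, shows the largest difference of the consensus sequences plotted, and AP-1 lies at 11.6% against 13.8%.

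Chains also differed in their surroundings. A start site lay inside the span of 63 chains (38.4%), while 67 held no transcript start, 27 were intronic throughout and 45 intergenic throughout. The highest site of a chain held a median of 34.1% of its summed height and was 2.44 times the lowest. It was the site nearest a start in 37 chains (22.6%), and the mean of 1 over the number of sites was 22.2%. The nearest protein-coding gene to the highest site lay within 10 kb in 103 chains and beyond 50 kb in 13, with 161 different genes in all. The chains overlapped no annotated gene in 36 cases. Chromosome 11 held 22 chains and 115 members, 9.16% of its distal sites, and chromosome 7 held 16 and 76, 7.43%; the lowest share was 2.92%, on chromosome 10. In 5 chains at least 1 site had 50% or more of its 32-base words elsewhere in the assembly: the first Sfi1 chain and those at Klrb1c, Ezh2, Gm15319 and Pramef17, where all 6 sites at Gm15319 and all 5 at Pramef17 did.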

How the data were processed

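DNase-seq was performed on bladder in 2 libraries of 1 group, replicate 1 and replicate 2, labelled as separate males under the same donor entry. Per the labels, reads were aligned to mm10; no aligner, peak caller or footprint caller is named in the sources used here. The authors deposited 2 peak lists per library, not pooled; the shorter list was used and the longer was an alternative. Peak height is the deposited signal of each peak, on a scale not stated. The deposited per-site FDR is a p-value adjusted for multiple testing. Its smallest value inside each peak was at most 0.001 for every peak of the shorter list, from the values. The footprints carry the deposited value 0.01, taken to be a threshold (p-value or FDR is not stated), with no strength.

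Peaks that overlapped by at least 1 base were merged, and neighbouring midpoints up to 12.5 kb apart were chained. Starts came from GENCODE M21 and tRNA genes from RefSeq; both share coordinates with mm10 through GRCm38 patch 6. Sequences of merged sites were searched for 38 consensus sequences on both strands, and 21 gene lists were counted within 50 kb of a start. Sites are not replicates, so no test was run, and values are descriptions; exact Clopper-Pearson intervals cover counting error only. The absolute depth is unknown. Scripts were tested on simulated data with Python 3.11.15, numpy 2.4.6, pandas 2.3.3, scipy 1.17.1 and numba 0.67.0. Named genes were those nearest the 20 highest chains outside tRNA genes and the 10 chains with most sites, up to 4 of each list, and the 3 highest tRNA chains; Foxa1, Btg2, Krt80, Rnase4, Sema6b, Klrb1c, Ezh2, Gm15319 and Pramef17 were chosen after their values were seen. Some genes that this rule selects, and the counts of the glial and housekeeping lists, are not reported here. The members and lists were chosen with earlier results of these data known. Alternatives changed the peak list, gap, chain size, distal distance, library, sequence window and height weighting; leaving out tRNA chains (for results other than height), Sfi1 chains or sites at RefSeq starts was chosen after seeing the data.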

Additional observations from a re-analysis of the deposited data

How the results depend on the processing

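The rule set how many chains there were: 164 chains and 775 sites became 666 and 3182 with the longer peak list, 69 and 333 with a gap of 5 kb, 279 and 1339 with 20 kb, 69 and 306 beyond 2500 bases from starts, 549 and 1930 with chains of 3, and 63 and 371 with chains of 5. Without replicate 1 or replicate 2 the counts ran between 316 and 605 chains and between 1615 and 3029 sites. The height of members over other distal sites, 1.31, was 1.20 with a gap of 5 kb, 1.36 beyond 2500 bases, 1.35 with chains of 5, 1.28 without tRNA chains, and 1.29 without the Sfi1 chains or without sites at RefSeq starts; with 1 library left out it lay between 1.13 and 1.22. The footprint difference of -3.29 percentage points reversed to 3.90 with the longer list, and was -5.84 at 5 kb, -1.09 at 20 kb, -5.53 within 10 groups of equal height and between -9.40 and -5.60 with 1 library left out. The AP-1 difference of -2.15 points was -4.75 at 5 kb. Immediate early genes near a chain, 5, were 8 with the longer list, 3 at 5 kb, 8 at 20 kb, 1 beyond 2500 bases, and 5 to 10 with 1 library left out. The cause of each was not tested. Ranking by the mean site height kept 8 of the 20 highest chains, and 142 of 164 chains had the same nearest gene by their midpoint. The other 29 values kept their direction, and those that are not counts stayed within the spread between libraries or the counting interval. Among the counts, leaving out sites at RefSeq starts gave 132 chains and 619 sites, and leaving out tRNA chains gave 145 and 677. Differences between libraries rest on 1 pair, and unknown depth limits what a missing footprint shows. No paired analysis was possible because there is 1 group only.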
